A study of Mus musculus with 6 samples.

Results

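The circadian clock genes are 10 genes, Arntl, Clock, Npas2, Per1, Per2, Per3, Cry1, Cry2, Nr1d1 and Dbp, taken by name. Every probe set annotated to exactly 1 of these symbols was used, which gave 23 probe sets of 45101 on the array and 10 genes of 18194. A probe set is a group of short probes on an Affymetrix array that together read 1 transcript. The tissue was the medial prefrontal cortex, a frontal area involved in learning and suppressing fear, from both hemispheres of 6 male 129S1/SvImJ mice aged 8 to 10 weeks. Of these, 3 were on the diet that the labels call ZnR, a zinc diet of unstated composition (mice 3, 7 and 11), and 3 were on the control diet (mice 1, 5 and 9). All 6 had gone through fear extinction training, repeated presentation of a feared cue without its outcome, and were killed 2 h later, so no untrained group enters the comparison. Each mouse gave 1 Mouse430_2 array. Precision is limited by the number of arrays. No source used here gives the clock time of killing.

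The mammalian clock is a transcriptional loop that runs in most cells, cortical neurons and glia included. ARNTL (also called BMAL1) pairs with CLOCK or its relative NPAS2, binds E-box sequences and switches on the Per and Cry genes, whose proteins return to the nucleus and repress the pair. A further loop links the activators to the nuclear receptors NR1D1 and NR1D2, which repress Arntl, and to the ROR receptors, which activate it. Dbp, Tef and Hlf are output transcription factors that act on D-box sequences. Per1 is also switched on directly by neuronal activity and by glucocorticoid hormone, so its level follows stimulation as well as the time of day.

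The arrays were alike in distribution, with medians of 4.46 to 4.52 log2 units. Over the whole table, 373 of 25381 probe sets passed the test for a difference by diet, 1.47%. This is the background for all counts of probe sets below. Signal of the 18S ribosomal RNA control probes was low in ZnR mouse 3 (8.44) and control mouse 1 (9.09) and lay between 10.9 and 12.4 on the other arrays. Of 7 markers of cortical excitatory neurons 6 passed the level filter, but so did 6 of 8 striatal neuron markers and 6 of 6 markers of ventricle-lining cells, so these counts do not set the tissue apart from its neighbours. Of 6 markers of the suprachiasmatic nucleus, the hypothalamic seat of the master clock, 5 were on the array. Vip alone passed the level filter, and cortical interneurons express it too.

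No clock probe set passed the test for a difference between ZnR and control mice. Of the 23, 20 passed the level filter (a log2 value over 4 on at least 3 arrays) and at least 1 did so for each of the 10 genes. By limma, adjusted by the Benjamini-Hochberg method over the 25381 probe sets kept, 0 of the 20 passed at 0.05 in either direction, where 0.461% of all probe sets passed as higher and 1.01% as lower in ZnR mice. Of the 20, 2 had an unadjusted p under 0.05, or 10%, where 17.0% of all probe sets did. Of the 20, 4 had no overlap between the diets, or 20%, against 23.7% of all probe sets tested. With each gene read by its brightest probe set, 6 genes were higher and 4 lower in ZnR mice. Their median difference was 0.03 log2 units, as it was for all 11749 genes (0.03), of which 6770 were higher and 4979 lower.

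**Figure D1:**
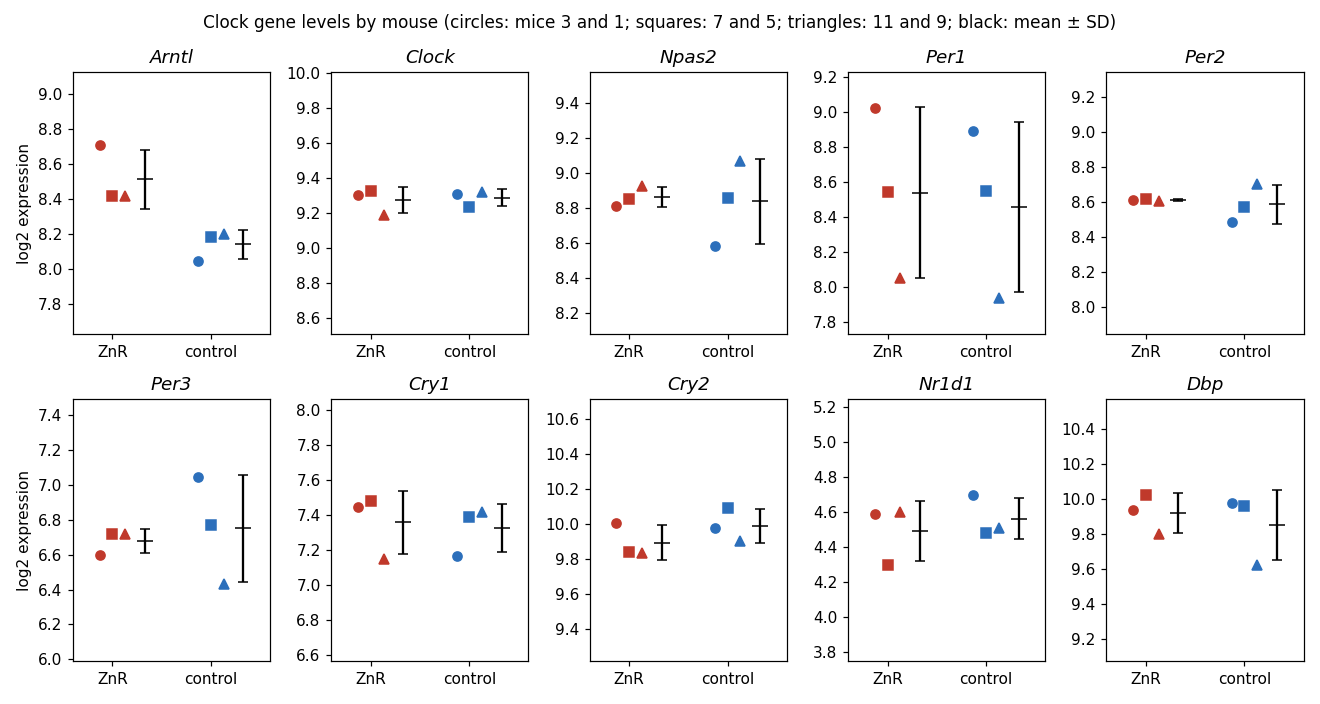
Log2 expression of the 10 clock genes in each mouse, ZnR left and control right, with every panel spanning 1.5 log2 units; symbols mark mice, and black bars give the mean ± SD (n = 3 per diet). Arntl alone separates the diets without overlap, while Per1 spreads over about as wide a range in ZnR mice as in control mice.

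Among the activators, Arntl showed the largest difference of the 10 genes. It measured 8.71, 8.41 and 8.42 log2 units in ZnR mice 3, 7 and 11, against 8.04, 8.18 and 8.20 in control mice 1, 5 and 9. Every ZnR mouse lay above every control mouse, and mouse 3 stood highest. The means were 8.51 ± 0.17 in ZnR mice and 8.14 ± 0.08 in control mice (SD, n = 3 each), a 1.29-fold difference (log2 0.37 ± 0.11 SE, 95% interval 0.12 to 0.62). That did not pass over the whole table (limma unadjusted p = 0.00996, adjusted p = 0.143). Without ZnR mouse 3 the difference was 0.27, and it was 0.66 between the mice with low 18S signal and 0.23 between the other 4. The part of that signal in the result was not tested. In the same arrays all 6 measured markers of ventricle-lining cells were higher in ZnR mice and 2 of them rose, with a mean centred on the 6 mice of 0.44 to 0.67 in ZnR mice and -1.17 to -0.12 in control mice. All 6 striatal neuron markers were higher too and 2 rose, at 0.17 to 0.42 in ZnR mice and -0.55 to -0.08 in control mice on the same centred scale. Other marker lists differed as well. All 6 astrocyte, all 5 measured oligodendrocyte and all 3 measured leptomeningeal markers were higher in ZnR mice, with medians of 0.20, 0.36 and 0.88. Of these, 1 astrocyte marker rose. All 6 measured excitatory neuron markers and all 5 microglia markers were lower, with medians of -0.93 and -0.11, and 5 of the excitatory markers fell. The part of any of these cells in the Arntl difference was not tested. The other Arntl probe set failed the level filter, with values of 3.64 to 4.03 in ZnR mice and 3.61 to 3.79 in control mice.

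The Arntl promoter is printed because this gene differed most between the diets and because the ROR and NR1D receptors are known to control it through a short sequence. RefSeq windows reach from 250 bases before to 50 bases after an annotated start on GRCm38.p6. They were found for 9 of the 10 genes, in 13 windows, and none was found for Per2. Capitals mark the core of the ROR and NR1D response element, searched as TAGGTCA or TGGGTCA on both strands, which begins 30 bases after this start. One or the other lies in 6.45% of all 32851 windows. Arntl had another window, chr7:113207215-113207514, in which neither lies. The window printed is chr7:113207261-113207560, plus strand.
Arntl: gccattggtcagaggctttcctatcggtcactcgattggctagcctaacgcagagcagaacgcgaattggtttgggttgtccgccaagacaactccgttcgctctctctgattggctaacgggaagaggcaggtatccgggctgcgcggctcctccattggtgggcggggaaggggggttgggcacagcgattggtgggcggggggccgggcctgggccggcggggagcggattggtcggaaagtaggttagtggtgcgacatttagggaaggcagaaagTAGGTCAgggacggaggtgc

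Clock, the usual partner of ARNTL, did not differ detectably. Its brightest probe set measured 9.31, 9.33 and 9.19 in ZnR mice 3, 7 and 11, against 9.31, 9.24 and 9.32 in control mice 1, 5 and 9. The diets overlapped throughout, and the difference of -0.02 ± 0.08 SE had a 95% interval of -0.21 to 0.18 (limma adjusted p = 0.954). The 4 Clock probe sets did not behave alike. Probe set 1435775_at measured 8.34, 8.37 and 8.27 in ZnR mice and 8.59, 8.44 and 8.60 in control mice, lower in ZnR mice without overlap (-0.21 ± 0.09 SE, unadjusted p = 0.0411, limma adjusted p = 0.27). Probe set 1418660_at also had no overlap (-0.12 ± 0.08 SE), and 1439314_at measured -0.02 ± 0.21 SE.

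Npas2, which can stand in for Clock in the forebrain, measured 8.81, 8.85 and 8.93 in ZnR mice 3, 7 and 11, against 8.59, 8.86 and 9.07 in control mice 1, 5 and 9. The control mice spanned the ZnR values on both sides. The difference was 0.03 ± 0.13 SE (95% interval -0.28 to 0.33, limma adjusted p = 0.95). Its dimmer probe set, 1421036_at, measured 0.14 ± 0.11 SE with overlap.

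Of the repressors, Per1 varied most from mouse to mouse. It measured 9.03, 8.54 and 8.05 log2 units in ZnR mice 3, 7 and 11, against 8.89, 8.55 and 7.94 in control mice 1, 5 and 9. Within each diet the mice ran across about 1 log2 unit, and the diets covered nearly the same range. The means were 8.54 ± 0.49 in ZnR mice and 8.46 ± 0.48 in control mice (SD, n = 3 each), and the difference was 0.08 ± 0.30 SE (limma adjusted p = 0.929). The unadjusted 95% interval ran from a fold of 0.652 to 1.71, the range of differences compatible with these values. The sign turned without ZnR mouse 3 (-0.16) or control mouse 9 (-0.18), and the difference was 0.33 without ZnR mouse 11.

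Per2 was the steadier gene by its brightest probe set, 1417602_at. It measured 8.61, 8.61 and 8.61 in ZnR mice 3, 7 and 11, against 8.48, 8.57 and 8.70 in control mice 1, 5 and 9. The 3 ZnR values lay inside the control range, and the difference was 0.03 ± 0.09 SE (95% interval -0.18 to 0.23, limma adjusted p = 0.925). The dimmer Per2 probe sets spread more. Probe set 1457350_at measured 5.83, 4.99 and 5.11 in ZnR mice 3, 7 and 11 and 5.59, 5.42 and 4.89 in control mice 1, 5 and 9. It spread widely in both diets with little shift (0.01 ± 0.26 SE). Probe set 1417603_at (0.11 ± 0.22 SE) spread in ZnR mice (SD 0.47) and little in control mice (SD 0.09).

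Per3 had 6 probe sets, of which 4 passed the filter. The brightest, 1421087_at, measured 6.60, 6.72 and 6.72 in ZnR mice 3, 7 and 11, against 7.05, 6.77 and 6.43 in control mice 1, 5 and 9. The ZnR mice again lay inside the wider control range (-0.07 ± 0.15 SE, limma adjusted p = 0.86). Its probe sets disagreed in sign, at -0.11 ± 0.16 SE for 1441445_at, 0.22 ± 0.11 SE for 1442243_at and 0.24 ± 0.16 SE for 1458176_at. Of these, 1442243_at had no overlap between the diets. Averaging the 4 gave 0.07 ± 0.09 SE, so no direction can be given for Per3.

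The cryptochromes, the stronger transcriptional repressors, did not separate by diet. Cry1 measured 7.45, 7.48 and 7.15 in ZnR mice 3, 7 and 11, against 7.17, 7.39 and 7.42 in control mice 1, 5 and 9 (0.03 ± 0.12 SE, limma adjusted p = 0.925). Cry2 measured 10.01, 9.84 and 9.83 in the same ZnR mice and 9.98, 10.09 and 9.90 in the same control mice (-0.10 ± 0.09 SE, limma adjusted p = 0.662). Both overlapped. The 95% intervals reached a fold of 0.841 to 1.25 for Cry1 and 0.802 to 1.09 for Cry2.

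Nr1d1, the receptor that represses Arntl, had 1 dim probe set. It measured 4.59, 4.30 and 4.60 in ZnR mice 3, 7 and 11, against 4.70, 4.48 and 4.51 in control mice 1, 5 and 9. The values lay just above the filter and overlapped (-0.07 ± 0.11 SE, 95% interval -0.34 to 0.20, limma adjusted p = 0.816). At so low a level, differences on this kind of array are compressed.

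Dbp, a D-box factor and a direct output of the loop, measured 9.94, 10.02 and 9.80 in ZnR mice 3, 7 and 11, against 9.98, 9.96 and 9.62 in control mice 1, 5 and 9. The lowest mouse of each diet was the one with the highest number (0.07 ± 0.12 SE, limma adjusted p = 0.833). Its other probe set, 1418174_at, measured 9.30, 9.19 and 9.07 in the ZnR mice and 9.27, 9.06 and 8.75 in the control mice. This too overlapped (0.16 ± 0.14 SE, limma adjusted p = 0.628).

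**Figure D2:**
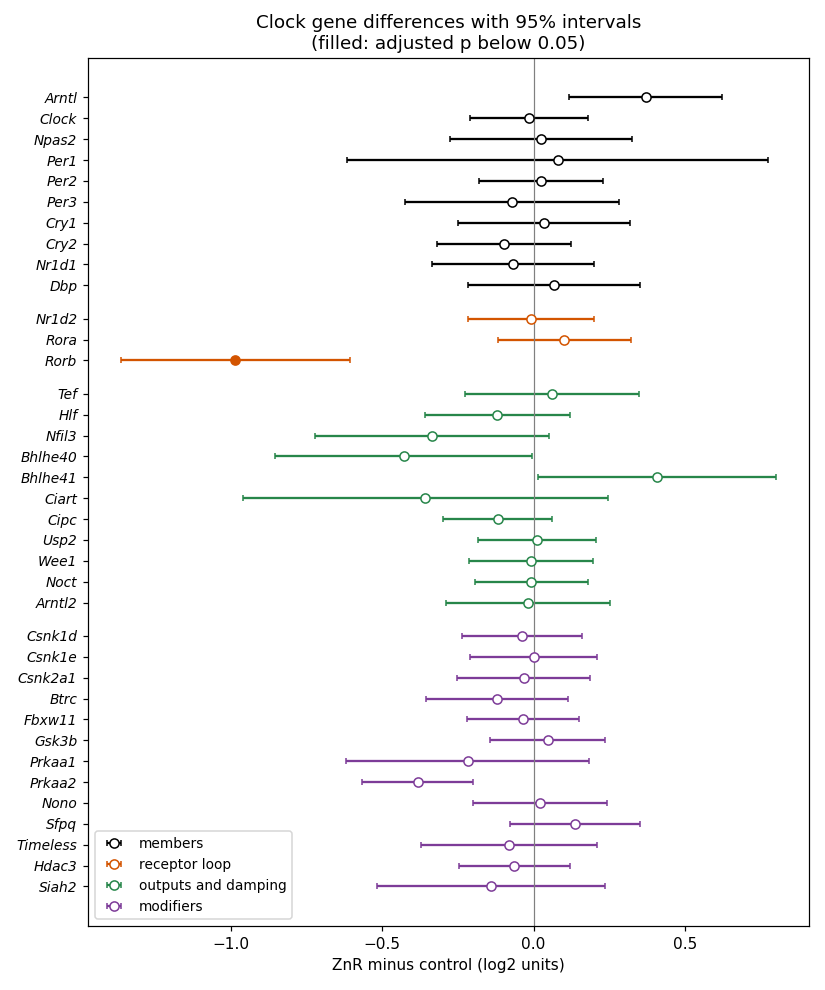
ZnR minus control in log2 units for the 10 clock genes and 27 further genes of the clock network, 1 probe set per gene, with 95% intervals; filled points passed at an adjusted p below 0.05. Rorb is the filled point, at -0.99, and the Arntl interval lies wholly above 0.

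The spread between mice of the same diet differed widely among the clock genes, each read by its brightest probe set. It was 0.49 log2 units for Per1, a value at percentile 98.9 of all probe sets tested, and 0.22 for Per3, at percentile 80.6. It was 0.06 for Clock, at percentile 9.29, and 0.08 for Per2, at percentile 17.3. Npas2 (66.5), Dbp (60.5), Cry1 (59.9), Nr1d1 (52.8), Arntl (46.1) and Cry2 (26.8) lay between, by percentile. Dimmer probe sets of a gene could rank otherwise. Per2 probe sets 1457350_at and 1417603_at lay at percentiles 97.6 and 94.9, and Clock probe set 1439314_at at 94.8. Clock probe sets 1418660_at and 1435775_at stayed low, at percentiles 11.5 and 14.0. Of the 20 probe sets tested, 12 were above the median spread of 0.14.

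**Figure D3:**
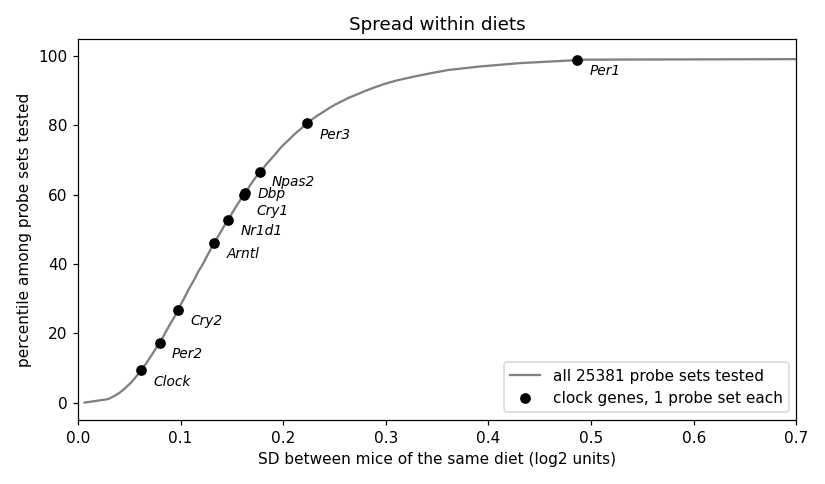
SD between mice of the same diet, in log2 units, against its percentile among all 25381 probe sets tested (grey line), with the 10 clock genes as points, each by its brightest probe set. Per1 sits at percentile 98.9 and Clock at 9.29.

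The wide spread of Per1 was arranged alike in both diets. ZnR mouse 3 and control mouse 1 were the high mice, ZnR mouse 7 and control mouse 5 lay between, and ZnR mouse 11 and control mouse 9 were the low mice. Within these neighbouring numbers the ZnR mouse differed from the control mouse by 0.13, -0.01 and 0.11 log2 units. With neighbouring numbers as a block, an alternative chosen after seeing the data, the difference stayed at 0.08 and its standard error was 0.09 in place of 0.30 (limma adjusted p = 0.681). The labels do not say what the numbers stand for. The 18S signal ran the opposite way to Per1, rising with mouse number within each diet. It was 8.44, 10.9 and 11.5 in ZnR mice 3, 7 and 11, against 9.09, 11.4 and 12.4 in control mice 1, 5 and 9. The part of the 18S signal in this arrangement was not tested. The term for neighbouring numbers had an unadjusted p of 0.000358 for Per1 and an adjusted p of 0.495 in limma. For that term 0 of the 25381 probe sets passed, and 2120 had an unadjusted p under 0.05.

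Among 36 other clock genes, the one whose values over the 6 arrays were most like those of Per1 was Tef, a D-box factor and relative of Dbp (Pearson r = 0.98 over 6 arrays, the highest of 36 and a description only). Tef measured 10.85, 10.66 and 10.55 in ZnR mice 3, 7 and 11, against 10.80, 10.64 and 10.44 in control mice 1, 5 and 9. The same mice were high and low as for Per1, over a narrower range. Hlf, the remaining factor of that family and chosen after its values were seen, measured 10.10, 9.98 and 9.87 in the ZnR mice and 10.22, 10.11 and 9.97 in the control mice. Dbp showed this arrangement by probe set 1418174_at and not by its brighter one.

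**Figure D4:**
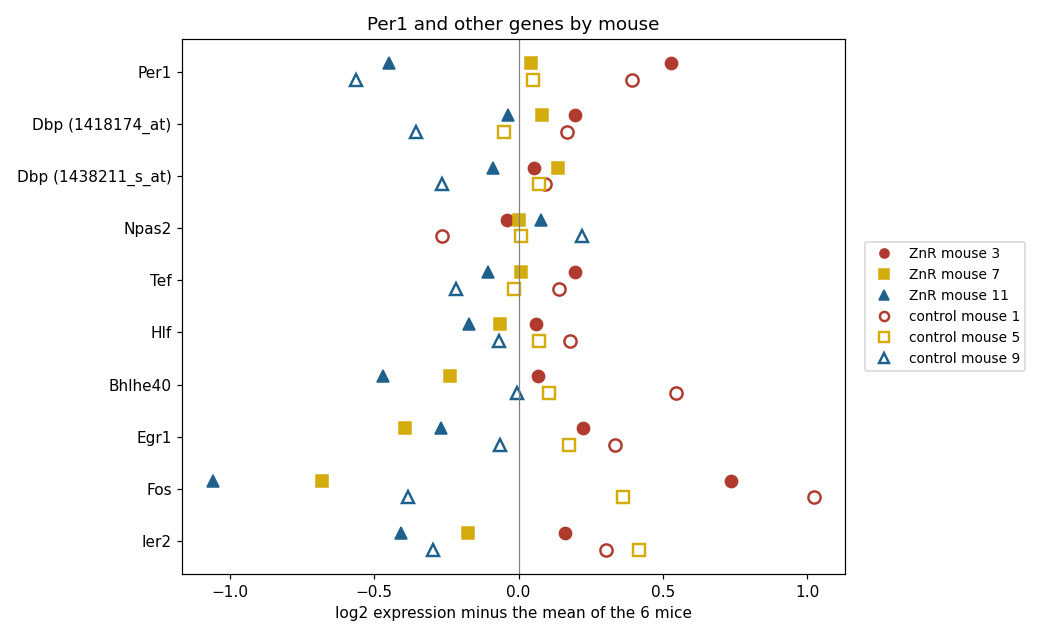
Log2 expression minus the mean of the 6 mice for Per1 and selected genes, with ZnR mice filled and above, control mice open and below, and neighbouring mouse numbers sharing a colour and shape. Within each diet Per1, Tef and Fos are highest in mouse 3 or 1 and lowest in mouse 11 or 9, and Npas2 runs the other way.

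Windows of Per1 and Tef are printed because these genes were high and low in the same mice and both hold an E-box, the sequence that the ARNTL pair binds. Capitals mark the E-box CACGTG, which reads the same on both strands. It begins 166 bases before the Per1 start and 127 bases before the Tef start. A copy lies in 7.15% of all windows of this length. Per2 had no window and was not searched. Of the 9 clock genes searched, in 13 windows, Per1 and Cry1 each held a copy in 1 window. In the wider network Tef, Bhlhe41, Ciart and Cipc held one too. No E-box lay in the other Per1 window or in those of Hlf, Dbp and Npas2, which says only that the letters are not in those bases. Hlf shared the arrangement of mice without an E-box in its window, and Cry1 held one without sharing it. The part of the E-box in the arrangement was not tested. The windows are chr11:69098699-69098998 for Per1 and chr15:81802423-81802722 for Tef, both on the plus strand.
Per1: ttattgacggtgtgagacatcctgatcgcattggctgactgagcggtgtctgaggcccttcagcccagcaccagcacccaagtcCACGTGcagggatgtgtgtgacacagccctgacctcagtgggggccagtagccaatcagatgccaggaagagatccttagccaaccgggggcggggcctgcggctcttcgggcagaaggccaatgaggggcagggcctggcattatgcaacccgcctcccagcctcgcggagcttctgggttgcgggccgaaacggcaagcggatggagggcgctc
Tef: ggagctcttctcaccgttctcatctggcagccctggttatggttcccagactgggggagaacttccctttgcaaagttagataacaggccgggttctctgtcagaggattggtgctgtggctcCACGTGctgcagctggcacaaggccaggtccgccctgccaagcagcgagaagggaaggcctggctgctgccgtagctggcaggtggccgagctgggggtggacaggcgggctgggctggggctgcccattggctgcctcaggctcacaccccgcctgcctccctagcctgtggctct

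Immediate early genes, which neurons switch on within minutes of activity, also varied by mouse. Fos measured 10.31, 8.89 and 8.51 in ZnR mice 3, 7 and 11, against 10.60, 9.93 and 9.19 in control mice 1, 5 and 9, the same order of mice within each diet as for Per1. Of 10 such genes, 7 had that order in both diets, as did 7.03% of all genes. Of the 10 clock genes by brightest probe set, Per1 had it and Npas2 had the reverse, so the clock genes as a set did not share it. Of their 20 probe sets, 2 had it (Per1 and Dbp 1418174_at), or 10%, against 5.86% of all probe sets. The reverse held for 3 (1 of Npas2, and Per3 1441445_at and 1442243_at), or 15%, against 5.15%. Of the 27 further clock genes 5 had the order of Per1, or 18.5%. These were Tef, Hlf, Bhlhe40, Usp2 and Siah2, the last pair named after their values were seen. In that list 0 had the reverse, which 4.43% of all genes had. By diet, 0 of the 10 immediate early genes passed, 9 were lower in ZnR mice and the median difference was -0.23. None of them had an unadjusted p under 0.05 in limma. Egr1 measured -0.29 ± 0.18 SE, Fos -0.67 ± 0.50 SE and Ier2 -0.28 ± 0.21 SE.

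The remaining clock genes were set against the same 36 genes. Npas2 was most like Per2 (r = 0.94), Cry1 most like Noct, which encodes the rhythmic enzyme nocturnin (r = 0.93), and Dbp most like the kinase gene Gsk3b (r = 0.95). Arntl was nearest to Bhlhe41 (r = 0.85), Cry2 to Nfil3 (r = 0.89), Clock to the kinase gene Csnk2a1 (r = 0.76) and Per3 to Nono (r = 0.69). Each is the highest of 36 values over 6 arrays, and these arrays differ in diet and 18S signal. Nr1d1 had no close partner, with a highest r of 0.61, for Hdac3.

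In the rest of the clock network, Rorb fell and 26 of the 27 measured genes did not pass. Of the 11749 genes tested, 1.92% passed. The 27 are those measured of 32 listed: 3 nuclear receptors of the second loop, 11 output and damping genes, and 13 of 17 kinases, ubiquitin ligase subunits and cofactors. Together with the 10 clock genes, 37 were tested, of which 14 were higher and 23 lower in ZnR mice, with a median of -0.02. An unadjusted p under 0.05 was reached by 13.5% of the 37 and by 18.8% of all genes. No overlap between the diets was seen in 13.5% of the 37 and in 27.7% of all genes.

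Rorb encodes an ROR receptor that can activate Arntl and is also a marker of middle-layer excitatory neurons in cortex. It measured 7.10, 7.53 and 7.01 in ZnR mice 3, 7 and 11, against 7.97, 8.27 and 8.35 in control mice 1, 5 and 9. All ZnR mice lay below all control mice. The fall was 1.98-fold (log2 -0.99 ± 0.16 SE, limma adjusted p = 0.0396). Its other probe sets were lower as well, by log2 differences of -0.80 ± 0.16 SE (adjusted p = 0.0568) and -0.71 ± 0.23 SE (adjusted p = 0.174) in limma, and did not pass. Leaving out ZnR mouse 7 kept the call, and leaving out any other mouse lost it (limma adjusted p of 0.0571 to 0.145), with differences from -1.15 to -0.89.

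Markers of cortical excitatory neurons were lower in the same mice. All 6 measured were lower on average and 5 fell, Slc17a7 among them (-1.08 ± 0.12 SE, limma adjusted p = 0.0182). Their mean, centred on the 6 mice, lay between -0.57 and -0.36 in ZnR mice and between 0.38 and 0.53 in control mice. Fewer cells of a type and less RNA per cell cannot be told apart in such tissue. In the same ZnR mice all 6 measured striatal neuron markers and all 6 ventricle-lining markers were higher on average, with medians of 0.59 and 1.22. The part of any of these markers in the Rorb result was not tested. Rora, a related receptor gene, measured 0.10 ± 0.09 SE and Nr1d2, the close relative of Nr1d1, -0.01 ± 0.09 SE.

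**Figure D5:**
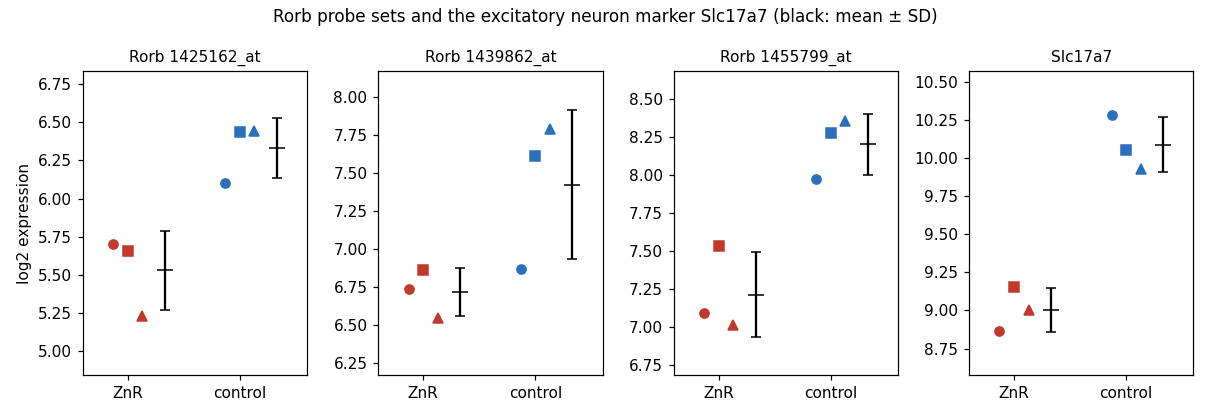
Log2 expression of the 3 Rorb probe sets and of Slc17a7 in each mouse, ZnR left and control right, with black bars for the mean ± SD (n = 3 per diet) and every panel spanning 2 log2 units. In probe set 1455799_at all ZnR mice lie at or below 7.53 and all control mice at or above 7.97.

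Among output and damping genes, the related repressors Bhlhe40 and Bhlhe41 went opposite ways and neither passed. Bhlhe40 measured 9.59, 9.29 and 9.06 in ZnR mice 3, 7 and 11, against 10.07, 9.63 and 9.52 in control mice 1, 5 and 9 (-0.43 ± 0.18 SE, limma adjusted p = 0.292). Bhlhe41 measured 4.90, 4.43 and 4.37 in the ZnR mice and 4.18, 4.36 and 3.94 in the control mice (0.41 ± 0.17 SE, limma adjusted p = 0.277). Bhlhe40 overlapped through ZnR mouse 3, while Bhlhe41 narrowly did not overlap and lies near the filter. Nfil3, a repressor that competes for D-boxes, measured -0.34 ± 0.17 SE. The remaining 8 genes of that list were between -0.36 and 0.06.

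Of the modifiers, Prkaa2 came nearest to the threshold. It encodes a catalytic subunit of the energy-sensing kinase AMPK, which marks cryptochromes for degradation. It measured 8.12, 8.23 and 8.19 in ZnR mice 3, 7 and 11, against 8.54, 8.57 and 8.58 in control mice 1, 5 and 9 (-0.38 ± 0.08 SE, limma adjusted p = 0.0637). No mice overlapped, and its dimmer probe set 1429463_at fell (-0.54 ± 0.09 SE, limma adjusted p = 0.0347). Averaging both probe sets gave -0.46 ± 0.07 SE with an adjusted p of 0.0154 in limma. Sfpq, a cofactor of the PER complex, measured 0.14 ± 0.09 SE and Prkaa1, the other AMPK catalytic subunit, -0.22 ± 0.17 SE. The kinase genes Csnk1d and Csnk1e, whose proteins set the pace of PER breakdown, were named after their values were seen and measured -0.04 ± 0.09 SE and 0.0002 ± 0.09 SE.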

How the data were processed

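For each mouse 500 ng of total RNA was labelled by an Affymetrix 3′ IVT kit, per the labels' protocols, and hybridised to a Mouse430_2 array. The authors deposited log2 expression values per probe set. The submitters' processing notes name GCRMA 2.28.0 and R 2.15.1. GCRMA makes array distributions alike, so changes of total RNA cannot be seen, and it compresses low values. All 6 columns were used, 1 per mouse.

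Platform annotation gave 1 symbol for 34958 probe sets, of which 34754 matched the GRCm38.p6 gene table by Entrez identifier. Probe sets over 4 on at least 3 arrays were kept (25381, or 56.4% of those other than the 64 array controls). The diets were compared with limma 3.58.1 in R 4.3.3, 2-sided, adjusted by Benjamini-Hochberg over all kept probe sets, with a threshold of 0.05 and no covariate. Intervals are 95% and not adjusted. Genes were read by their kept single-gene probe set of highest mean. Named were all clock genes, the genes past the threshold and the 3 of smallest p in each further clock list, the 3 of smallest p among activity and glucocorticoid genes, and the marker genes past the threshold where a result turned on them. Genes named outside this rule are marked as such in the text. Members and lists were chosen with earlier results of these data known. Each mouse was a separate animal. The fit was tested on simulated data drawn with the means and spread of these arrays before use. Motifs were searched and figures drawn in Python 3.11.15 using pandas 2.3.3 and matplotlib 3.10.9.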

Additional observations from a re-analysis of the deposited data

How the results depend on the processing

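The labels pair no mice, since no mouse number occurs in both diets; blocking on neighbouring numbers was tried only after the data were seen. No clock probe set passed under any of the alternatives run: no filter, a filter at 6, renewed quantile normalization, an intensity trend, robust variances, array weights, the low-18S arrays as a block, neighbouring mouse numbers as a block, and each mouse left out. That count was 0 throughout, while the count over the whole table was 373 and became 916 with an intensity trend, 2003 with array weights, 235 with neighbouring numbers as a block, and 1 to 109 without 1 mouse (1 without control mouse 5). Among further clock genes 1 passed (Rorb). It was 2 with the filter at 6, the trend and array weights, each adding Prkaa2, and 0 to 1 without 1 mouse. With the mean of all kept probe sets of a gene, Rorb and Prkaa2 both passed (limma adjusted p = 0.0309 and 0.0154).

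Arntl and Cry2 kept their sign in all alternatives, Arntl at 0.27 to 0.42 with adjusted p from 0.0586 to 0.30, and Cry2 at -0.18 to -0.05. Signs of the others turned in some, with differences not past the threshold either way. With array weights Clock was 0.0178, Per1 -0.0326, Cry1 -0.0394, Nr1d1 0.0127 and Dbp -0.0287. With the mean of all probe sets Per3 was 0.0726. Over the 6 fits that left out a mouse, Clock ran from -0.0419 to 0.0267, Npas2 from -0.10 to 0.14, Per1 from -0.18 to 0.33, Per2 from -0.0265 to 0.0849, Per3 from -0.23 to 0.0766, Cry1 from -0.0446 to 0.14, Nr1d1 from -0.12 to 0.0303 and Dbp from -0.0488 to 0.13. The cause of these changes was not tested. With 3 mice per diet, the 95% interval of the Arntl difference ran from a fold of 1.09 to 1.54.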

Other observations

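Glucocorticoid-induced genes, read because Per1 is one such gene, did not pass by diet. Of 7 measured, 0 passed and 1 had an unadjusted p under 0.05 in limma, with 4 higher and 3 lower and a median of 0.01. Mt2, a metallothionein gene that also answers to zinc, measured 12.03, 12.18 and 12.24 in ZnR mice 3, 7 and 11, against 11.74, 11.88 and 11.98 in control mice 1, 5 and 9 (0.28 ± 0.10 SE, limma adjusted p = 0.215). Fkbp5, a chaperone gene of the glucocorticoid receptor, measured 0.14 ± 0.12 SE and Tsc22d3, which encodes the anti-inflammatory protein GILZ, 0.16 ± 0.13 SE. None of the 7 had the order of mice seen for Per1, and Mt2 and Sult1a1, Sult1a1 being named after its values were seen, had the reverse order in both diets (2 of 7, where 4.43% of all genes did).

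Of 6 interneuron markers measured, 3 were higher and 3 lower in ZnR mice, with a median of -0.0084 log2 units, and 1 passed. That was Vip, a peptide gene that also marks the suprachiasmatic nucleus, which fell to 0.50 of the control level in ZnR mice (limma adjusted p = 0.0208). It measured 8.60, 8.98 and 8.78 in ZnR mice 3, 7 and 11, against 9.78, 9.67 and 9.91 in control mice 1, 5 and 9. The other 5 were named after their values were seen, and none of them passed. The GABA transporter gene Slc32a1 and the GABA-synthesis gene Gad2 measured 0.56 and 0.39 without overlap. Gad1, also a GABA-synthesis gene, measured 0.12 with overlap. Pvalb and Sst were lower, as Vip was, at -0.70 and -0.13, both with overlap. The median near 0 thus joins genes that went opposite ways. Per2 and Per3, by their brightest probe sets, had a Pearson r of -0.97 over 6 arrays (a description only), the lowest value for either among 36 clock genes. Per2 was nearly level in the ZnR mice (SD 0.004), so the value rests largely on the control mice. Over control mice 1, 5 and 9, Per3 probe sets 1441445_at and 1442243_at rose, as that Per2 probe set did, while 1458176_at fell.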
